A study of Mus musculus with 11 samples.

Results

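The 7 genes described here encode transcription factors of formative pluripotency: Otx2, Pou3f1, Zic2, Zic5, Utf1, Sox3 and Sall2. They were taken by name from the gene tables of an RNA-seq study of the histone H2B deubiquitinase adaptor ATXN7L3, which together list 34570 genes, 31518 of them in mouse embryonic stem cells (mESCs) and 29450 in mouse embryonic fibroblasts (MEFs). All 7 have a row in the mESC table and 6 have one in the MEF table, where Utf1 has no row and therefore no value. ATXN7L3 is a subunit that USP22, the ubiquitin protease of the SAGA co-activator, needs for full activity in removing ubiquitin from histone H2B. The related proteases USP27X and USP51 also work with ATXN7L3 on H2B, outside SAGA.

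Poly(A)+ RNA was sequenced in 11 libraries of strain DBA/2 x C57BL/6, from 2 WT (Atxn7l3+/+) and 3 Atxn7l3-/- mESC lines and from 3 WT and 3 Atxn7l3-/- MEF cultures. The null allele was inherited through the germline, from crosses of heterozygous mice. Each mESC line came from its own blastocyst, was grown on feeder cells for 2 passages and then without them, with LIF, 15% serum and the inhibitors PD0325901 (1 uM) and CH99021 (3 uM), which hold mESCs in the naive state. MEFs were grown from E10.5 embryos without head and gut in 10% serum and without these additions, so cell type and medium cannot be told apart. Formative differentiation was not induced in any group.

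Pluripotency passes through a naive state, held by factors such as NANOG, ESRRB and KLF2, and then through a formative state, in which cells of the early epiblast become able to respond to signals for germ layers and germ cells. OTX2 drives this exit and, with the POU factor POU3F1 (OCT6), accompanies the pluripotency factor OCT4 to new enhancers, and ZIC2, ZIC5, UTF1, SOX3 and SALL2 are further factors of cells at these stages. Several of the same genes act again later, above all in the neural plate and the brain.

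Library totals lay between 34515342 and 49602605 counts, at which 3 counts, taken as the floor, correspond to 0.0572 to 0.0938 CPM (counts per 1000000 counts of the normalised library). The markers of pluripotent cells, 6 genes including Pou5f1 and Nanog, summed to 3262 to 4091 CPM in mESCs and to 49.5 CPM at most in MEFs, and the 8 fibroblast markers to 7273 to 45878 CPM in MEFs. In mESCs the fibroblast markers, which feeder cells also express, summed to at most 96.0 CPM in WT and to 275 to 395 CPM in Atxn7l3-/- lines. Atxn7l3 was at 197 and 203 CPM in WT mESCs and at 0.833 to 3.34 CPM in Atxn7l3-/- mESCs, but at 86.6 to 117 CPM in WT MEFs and at 55.5 to 73.3 CPM in Atxn7l3-/- MEFs. The log2 difference was -6.65 ± 0.53 in mESCs (edgeR adjusted p = 0.021) and -0.74 ± 0.21 in MEFs, where it did not pass the test (adjusted p = 0.071). These are RNA values, and by Western blot the authors could not detect ATXN7L3 protein in Atxn7l3-/- cells of either type. Replicates 1 and 2 of the Atxn7l3-/- mESCs and replicate 3 of the WT MEFs had at most 7.67 CPM over 4 Y-linked genes, against at least 169 CPM in the other libraries, and so came from lines without a Y chromosome or with very little RNA from it. In bulk RNA, fewer cells of a type and less RNA per cell cannot be told apart.

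Levels of different genes were compared per length, on the normalised reads per kb of transcript that the authors deposited. In WT mESCs Utf1, a chromatin-bound factor of pluripotent cells, stood at 792 ± 281 reads per kb (SD, n = 2) and Zic2, a zinc-finger factor of the epiblast, at 380 ± 8.62. Below them came Zic5 at 236 ± 71.8, Sall2 at 191 ± 34.9, Otx2 at 77.9 ± 61.6, Pou3f1 at 20.6 ± 13.2 and Sox3 at 9.97 ± 1.63 reads per kb. In this order the libraries of neighbouring genes overlapped only between Zic5 and Sall2. Within the 31518 genes listed for mESCs, the mean of Zic2 reached the 73.5th percentile and that of Sox3 the 46.7th. In Atxn7l3-/- mESCs the order by mean was Utf1 at 466 ± 198 reads per kb (SD, n = 3), Zic2, Sall2, Otx2 and Zic5, and each of these overlapped the next. Pou3f1 at 16.8 ± 2.04 and Sox3, with single libraries from 0.955 to 21.8 reads per kb, lay below them and overlapped each other. In WT MEFs Zic2 stood at 918 ± 911 reads per kb, Sall2 at 332 (296 to 388) and Zic5 at 252 ± 303 (SD, n = 3), with overlap between neighbours. Atxn7l3-/- MEFs had Sall2 on top, at 262 ± 41.5 reads per kb, above all 3 values of Zic2, whose mean was 56.6 ± 78.5.

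**Figure D1:**
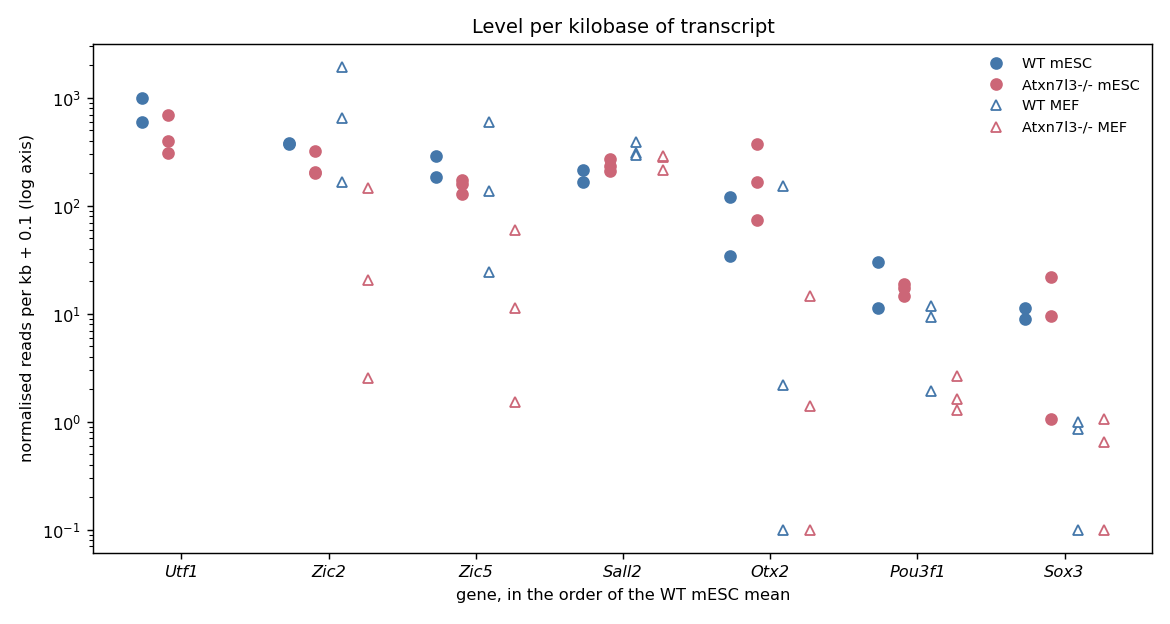
Normalised reads per kb of transcript (log axis, 0.1 added) for each factor, 1 symbol per library, with circles for mESCs and triangles for MEFs, blue for WT and red for Atxn7l3-/-. Genes stand in the order of their WT mESC mean, from Utf1 at 792 to Sox3 at 9.97 reads per kb, and in MEFs the libraries of Zic2, Zic5 and Otx2 spread over more than those of Sall2, with heights comparable within 1 cell type because the authors normalised each table on its own.

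Otx2 encodes the homeodomain factor of the epiblast and the head. It lies on the minus strand of chromosome 14 (GRCm38/mm10, 48657679 to 48667644 as the files list it) and has 11 transcripts with 2 to 6 exons in GENCODE M21. The 250 bases before the most upstream of its annotated starts (RefSeq, GRCm38.p6, chr14:48667645-48667894, minus strand) lie in no annotated exon and are shown because they hold a TATAAA match, in capitals, which 12.4% of 32851 mouse promoter windows of this length hold on either strand:
Otx2: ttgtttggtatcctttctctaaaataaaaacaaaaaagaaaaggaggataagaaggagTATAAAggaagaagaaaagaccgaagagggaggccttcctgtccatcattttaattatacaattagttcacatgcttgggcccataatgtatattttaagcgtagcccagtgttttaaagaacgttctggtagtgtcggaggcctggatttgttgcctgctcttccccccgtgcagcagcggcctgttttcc
Otx2 was at 0.706 and 2.55 CPM in the WT mESC libraries and at 3.42, 7.91 and 1.49 CPM in the Atxn7l3-/- libraries. The genotypes overlapped: the 2 lines without Y-linked RNA were above both WT lines, and the Y-bearing Atxn7l3-/- line lay between them. The fitted difference was 1.43 ± 0.81 (log2, SE) and did not pass the test (edgeR quasi-likelihood, adjusted p = 0.28). With the sex of the line as a term, which rests the genotype effect on the 1 Y-bearing Atxn7l3-/- line, it was -0.05 ± 0.84 (edgeR adjusted p = 0.98). Both lines without Y-linked RNA are Atxn7l3-/-, so sex and genotype are partly aligned among the 5 lines.

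Of all 17800 genes tested in mESCs, 6.96% were called at an adjusted p of 0.05 or less, 548 higher and 690 lower in Atxn7l3-/-, and of the 7 factors 0 were called (edgeR), with 0 at an unadjusted p under 0.05 and 0 called by DESeq2, which called 18.6% of genes. The replicate block called 8.06% of genes and sex as a term 9.14%, each with 0 of the factors. In the block, Atxn7l3-/- replicate 3 has no WT partner. The genotype effect then rests on Atxn7l3-/- replicates 1 and 2, without Y-linked RNA, against Y-bearing WT lines, so sex and genotype cannot be told apart. In the fit with genotype only, their adjusted p-values ran from 0.25 to 0.93, and the median of their log2 differences was -0.25, against 0.04 over all genes tested.

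Pou3f1 encodes a POU-domain partner of OTX2 and is a gene of 1 exon on chromosome 4 (124656807 to 124660655). Its RNA was at 1.01 and 2.74 CPM in WT and at 1.54, 1.35 and 1.64 CPM in Atxn7l3-/- mESCs. All 3 Atxn7l3-/- values lay between the 2 WT values, and the fitted difference was -0.25 ± 0.54 (edgeR adjusted p = 0.79). An antisense gene, Gm2164, overlaps it but had at most 3 counts in any library.

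Zic2 and Zic5 are neighbours on chromosome 14, read away from each other, and their listed starts are 9758 bases apart (Zic5 from 122456795 to 122465677 on the minus strand, Zic2 from 122475435 to 122479852 on the plus strand). Both encode C2H2 zinc-finger factors of the early epiblast and of the dorsal neural tube. Zic2 was at 13.9 and 14.7 CPM in WT mESCs and at 7.74, 7.80 and 11.8 CPM in Atxn7l3-/- mESCs. The groups did not overlap, and the Y-bearing Atxn7l3-/- line was nearest to WT. The difference was -0.60 ± 0.33 (edgeR adjusted p = 0.26), and -0.20 ± 0.37 with sex as a term (adjusted p = 0.74). Zic5 stood at 11.8 and 18.7 CPM in WT and at 8.25, 11.3 and 9.89 CPM in Atxn7l3-/- mESCs, again without overlap, with a difference of -0.59 ± 0.32 (edgeR adjusted p = 0.25). All Atxn7l3-/- libraries were below all WT libraries for these 2 factors and for 26.7% of the genes tested in mESCs, which puts their share close to the background.

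The interval between both genes begins, on the Zic5 side, with the sequence printed next (RefSeq, GRCm38.p6, chr14:122465678-122465908, minus strand, 231 bases before the first annotated exon). It is shown because the pair shared a replicate order in the MEF libraries described later, and none of 6 motifs searched on both strands occurs in it. Beside TATAAA and the GC box described later, these were the OTX site TAATCC, which 6.25% of all windows hold, the octamer ATGCAAAT with 1.60% of windows, the SOX site ACAAAG with 16.5% and the TCF/LEF site ATCAAAG with 3.21%.
Zic5: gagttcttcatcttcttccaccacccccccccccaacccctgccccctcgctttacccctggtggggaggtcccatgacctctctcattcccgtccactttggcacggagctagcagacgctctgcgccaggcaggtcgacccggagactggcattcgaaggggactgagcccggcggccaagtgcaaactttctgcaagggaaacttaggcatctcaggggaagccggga
No RefSeq promoter entry was used for Zic2, Pou3f1 or Sox3. Per kb, the ratio of Zic2 to Zic5 ran from 1.18 to 2.05 over the mESC libraries, so their RNAs were of the same order in every line.

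Utf1 binds chromatin and limits gene expression in pluripotent cells. Its gene (chromosome 7, 139943789 to 139945112, plus strand, 2 exons) has 4 GC boxes, GGGCGG, in the 250 bases before its RefSeq start, a motif found in 32.7% of promoter windows on either strand. The part of that window in no annotated exon (RefSeq, GRCm38.p6, chr7:139943606-139943788, plus strand, 183 bases) shows 3 of them in capitals, the leading pair overlapping by 1 base, for the only factor without a row in MEFs:
Utf1: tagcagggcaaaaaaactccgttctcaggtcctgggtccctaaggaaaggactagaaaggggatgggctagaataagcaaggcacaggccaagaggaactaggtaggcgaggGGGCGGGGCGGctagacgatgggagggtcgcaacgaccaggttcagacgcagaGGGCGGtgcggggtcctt
Its RNA was at 16.9 and 28.9 CPM in WT and at 11.4, 9.13 and 19.3 CPM in Atxn7l3-/- mESCs. The Y-bearing Atxn7l3-/- line lay between the WT lines and the 2 others lay below both, and the difference of -0.72 ± 0.40 did not pass the test (edgeR adjusted p = 0.26). With sex as a term it was -0.17 ± 0.42 (edgeR adjusted p = 0.81).

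Sox3, an X-linked SOXB1 factor (chromosome X, 60891366 to 60893430, 1 exon) that shares the HMG box of SOX2, was near the floor. It had 28 and 21 counts in WT mESCs (0.534 and 0.432 CPM) and 41, 22 and 2 counts in Atxn7l3-/- mESCs (1.05, 0.472 and 0.0450 CPM). The lowest value belonged to the Y-bearing Atxn7l3-/- line and the highest to a line without Y-linked RNA. The difference was 0.15 ± 0.97 (edgeR adjusted p = 0.93) and -3.28 ± 1.05 with sex as a term (adjusted p = 0.084).

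Sall2 encodes a zinc-finger factor of the spalt family, found in pluripotent cells and widely in later tissues. In mESCs it was at 19.2 and 25.4 CPM in WT and at 24.5, 32.6 and 26.3 CPM in Atxn7l3-/-, with overlap at the lowest Atxn7l3-/- line, and the difference was 0.37 ± 0.24 (edgeR adjusted p = 0.34).

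**Figure D2:**
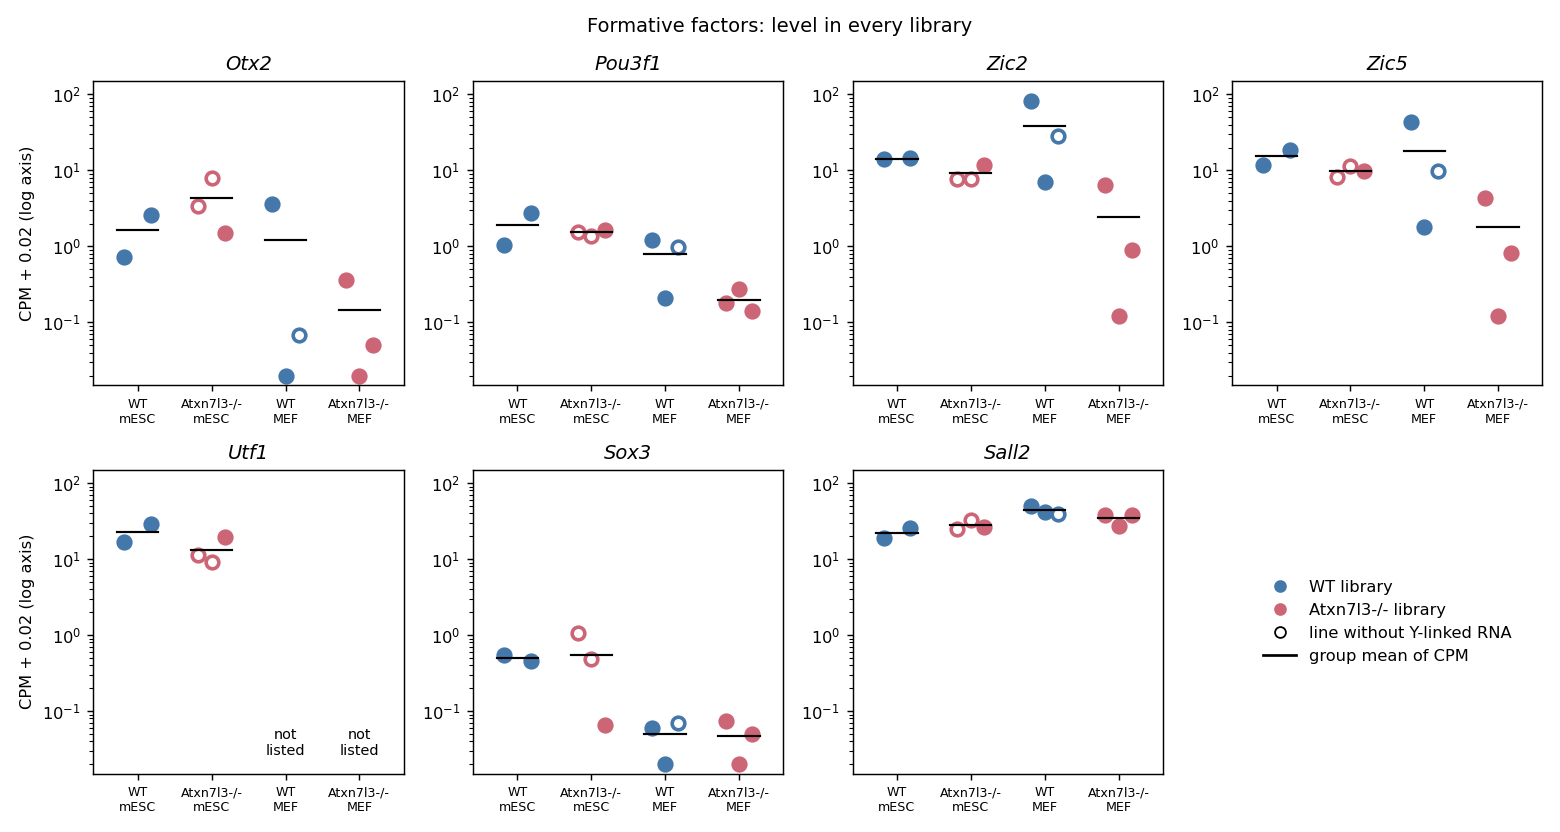
CPM of each factor in every library (log axis, 0.02 added; 1 normalization over all 11 libraries), 1 point per library in the 4 groups, blue for WT and red for Atxn7l3-/-, with a black bar at the group mean and open points for lines without Y-linked RNA. In mESCs Otx2 runs from 0.706 to 7.91 CPM, with the open points highest, while in MEFs Zic2 runs from 81.3 CPM in a WT library to 0.102 CPM in an Atxn7l3-/- library and Utf1 is not listed.

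In MEFs 9.41% of the 15958 genes tested were called, 800 higher and 701 lower in Atxn7l3-/-. Of the 6 factors listed there, 3 passed the filter on low counts, namely Sall2, Zic2 and Zic5, and 0 of them were called by edgeR, with 1 at an unadjusted p under 0.05. DESeq2 called 2 of the 4 factors to which it gave an adjusted p, Zic2 (adjusted p = 0.0065) and Zic5 (adjusted p = 0.031), where it called 20.9% of genes, and a single fit of all 11 libraries called Zic2 (edgeR adjusted p = 0.040) among 18.5% of genes. Otx2, Pou3f1 and Sox3 were below the filter.

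Zic2 was at 81.3, 7.09 and 27.9 CPM in WT MEF replicates 1, 2 and 3 and at 6.32, 0.102 and 0.868 CPM in Atxn7l3-/- replicates 1, 2 and 3. The highest Atxn7l3-/- library was just under the lowest WT library, and within each genotype replicate 1 was highest and replicate 2 lowest. All Atxn7l3-/- libraries were likewise below all WT libraries for 19.7% of the genes tested in MEFs. The fitted difference was -4.05 ± 1.47, which did not pass the test (edgeR adjusted p = 0.12). Same-numbered WT and Atxn7l3-/- MEF libraries deviated together over all genes, though the labels do not say that a number marks a pair. With a block for replicate number the difference was -4.74 ± 0.51 (edgeR adjusted p = 0.016), a fit in which 14.0% of all genes tested and 2 of 3 factors were called. Within replicates 1, 2 and 3 the WT level was 12.9, 69.3 and 32.2 times the Atxn7l3-/- level, and the 69.3 rests on 4 counts in the Atxn7l3-/- library. With sex as a term, since WT replicate 3 had no Y-linked RNA, the difference was -4.25 ± 1.67 and was not called (edgeR adjusted p = 0.20), in a fit that called 1.59% of genes.

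Zic5 was at 42.8, 1.78 and 9.88 CPM in WT replicates 1, 2 and 3 and at 4.35, 0.102 and 0.808 CPM in Atxn7l3-/- replicates 1, 2 and 3. The highest Atxn7l3-/- library was above the lowest WT library, so the genotypes overlapped, yet within each replicate number WT was higher, by 9.84, 17.4 and 12.2 times. The difference was -3.43 ± 1.51 without the block (edgeR adjusted p = 0.17) and -3.62 ± 0.34 with it (edgeR adjusted p = 0.014). Per kb, Zic2 exceeded Zic5 by 3.24 to 6.80 times in WT MEFs, and by 2.48 and 1.83 times in Atxn7l3-/- replicates 1 and 3, which had 164 and 27 Zic5 counts.

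Sall2 was at 50.6, 41.4 and 38.9 CPM in WT and at 37.7, 27.7 and 37.6 CPM in Atxn7l3-/- MEFs. All Atxn7l3-/- libraries were below all WT libraries by a small margin, as for 19.7% of the genes tested in MEFs. The difference was -0.36 ± 0.23 without the block and -0.37 ± 0.22 with it (edgeR adjusted p = 0.30 and 0.28). Otx2 came almost wholly from replicate 1, with 175, 0 and 2 counts in WT and 13, 0 and 1 counts in Atxn7l3-/- MEFs. Pou3f1 had 58, 6 and 39 counts in WT and 6, 10 and 4 counts in Atxn7l3-/- MEFs, with overlap between the genotypes. Sox3 had at most 2 counts in any MEF library, which is under the floor. When no filter was applied, 6.44% of genes were called, and the differences were -3.20 ± 1.77 for Otx2 and -2.08 ± 0.80 for Pou3f1, and neither passed the test (edgeR adjusted p = 0.32 and 0.15).

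**Figure D3:**
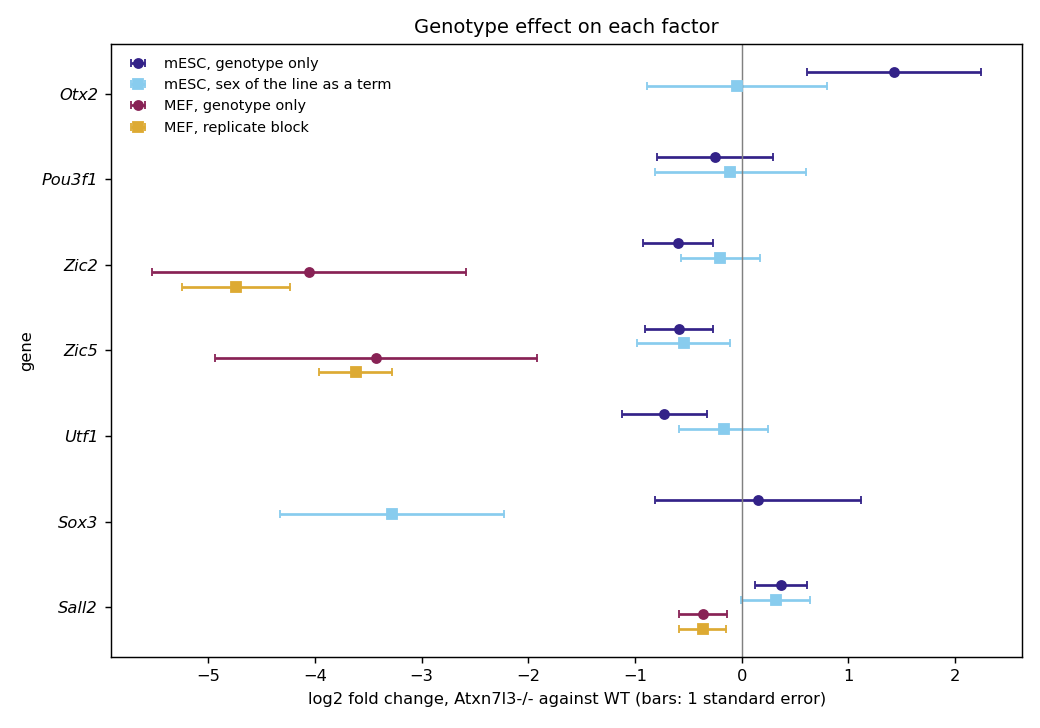
Log2 fold change of Atxn7l3-/- against WT for each factor (points, with bars of 1 SE) from the mESC fits, with genotype only and with the sex of the line as a term, and from the MEF fits, with genotype only and with the replicate block. In mESCs sex as a term moves Otx2 from 1.43 to -0.05 and Sox3 from 0.15 to -3.28, and in MEFs the block narrows the SE of Zic2 from 1.47 to 0.51.

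Markers of other cells differed along with the Zic genes in MEFs. The 8 markers of neural progenitors and neurons summed to 782, 120 and 725 CPM in WT replicates 1, 2 and 3 and to 78.2, 25.1 and 93.4 CPM in Atxn7l3-/- replicates 1, 2 and 3, most of it Nes, a filament of progenitors. Pax6, a neural transcription factor, was at 64.6, 1.13 and 11.4 CPM in WT and at 3.69, 0.307 and 0.539 CPM in Atxn7l3-/- MEFs, in the same replicate order as Zic2. Of the 8 markers 5 were tested, of which 1, Dcx, was called lower (-5.78 ± 0.87, edgeR adjusted p = 0.018). That fit called 9.41% of all genes tested. With 244, 31 and 75 counts in WT and 2, 2 and 1 in Atxn7l3-/- MEFs, Dcx passed the filter through the WT libraries. Its call therefore supports nothing. With the block, which called 14.0% of all genes, 4 of the markers were called. In the Atxn7l3-/- libraries 4 to 5 of the 8 had 3 counts or fewer, against 1 to 2 in the WT libraries. Neural crest markers, 6 genes, summed to 97.1 to 276 CPM in WT and to 55.8 to 80.8 CPM in Atxn7l3-/- MEFs, with 2 of 6 called lower. Fibroblast markers summed to 7273, 45878 and 15049 CPM in WT replicates 1, 2 and 3, so that the WT library with the most Zic RNA had the least of them, and to 18596 to 24641 CPM in Atxn7l3-/- libraries. Primitive endoderm markers, 5 genes led by Dab2, summed to 202 to 360 CPM in WT and to 501 to 1086 CPM in Atxn7l3-/- MEFs, with 2 of 4 tested called higher and 1 lower, and the 4 primitive streak markers to at most 3.47 CPM in any MEF library. The part of other cells in the Zic result was not tested.

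The replicate order of Zic2 and Zic5 was also seen in their relatives. Of 13 paralogues, 11 are listed in MEFs, and all 11 were highest in WT replicate 1, then 3, then 2, an order held by 24.5% of the genes tested in MEFs. Among them Zic1 was at 195, 22.4 and 76.1 CPM in WT and at 27.7 CPM in Atxn7l3-/- replicate 1, 11.8 CPM in replicate 3 and 51 counts in replicate 2. Zic4, which lies beside Zic1, was at 73.8, 5.34 and 15.3 CPM in WT and at 7.91, 0.128 and 1.35 CPM in Atxn7l3-/-. Of the 10 paralogues tested, 0 were called by edgeR, all 10 differences were negative, and their median was -3.14 against -0.06 over all genes. With the block, 6 of the 10 were called, all lower, in a fit that called 14.0% of all genes, 1355 of 15958 lower. Among the 6 were Sall1 (-5.44), Sox2 (-4.69), Pou3f3 (-3.92), Zic4 (-3.86) and Zic1 (-3.19).

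**Figure D4:**
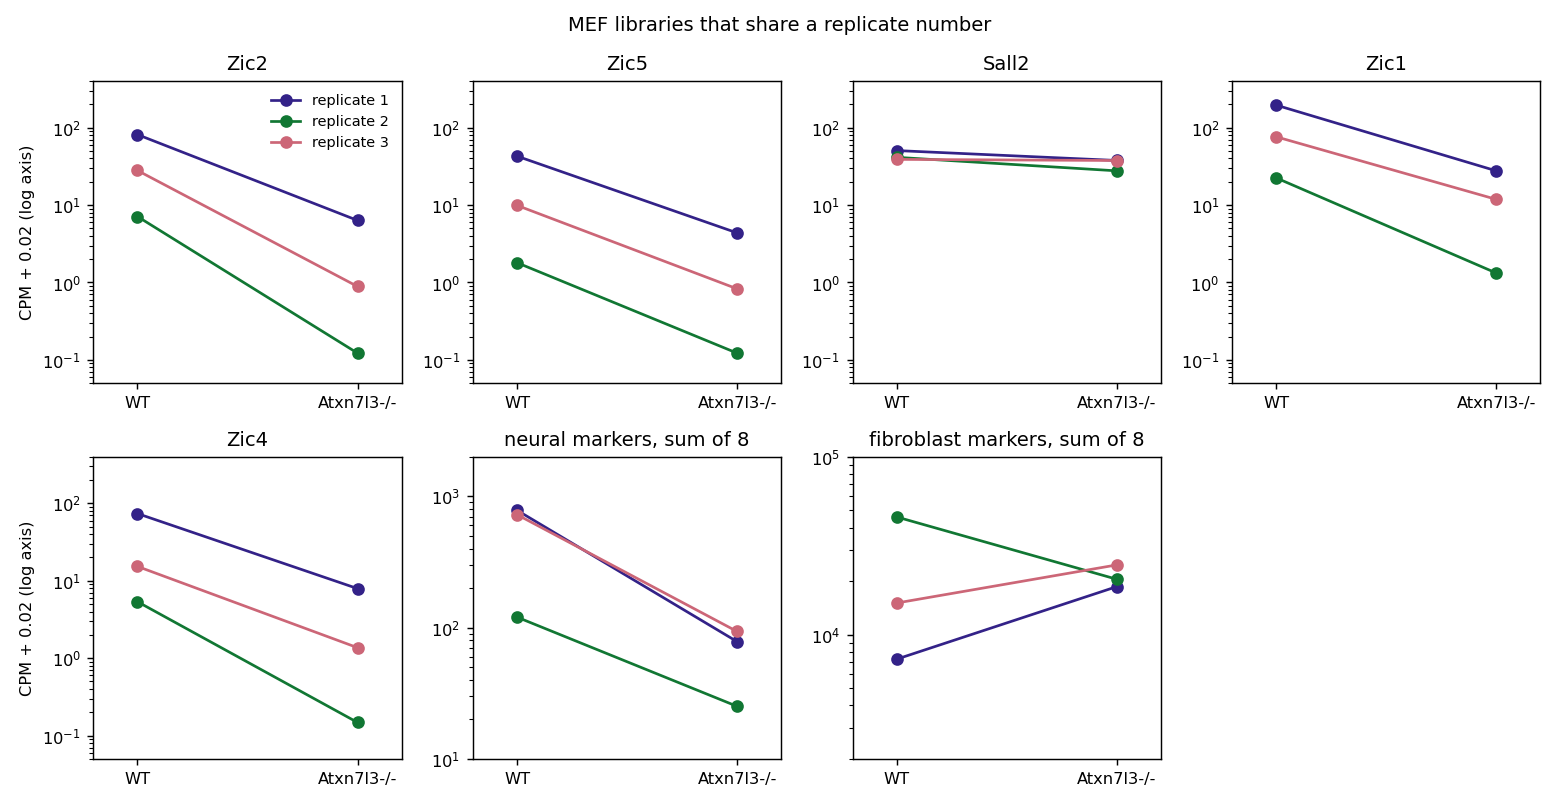
CPM (log axis, 0.02 added) of Zic2, Zic5, Sall2, Zic1 and Zic4 and the summed CPM of 8 neural and 8 fibroblast markers in MEFs, with a line joining the WT and the Atxn7l3-/- library of the same replicate number. In every replicate each Zic gene plotted is lower in Atxn7l3-/- than in WT, at 6.32 against 81.3 CPM for Zic2 in replicate 1, the Sall2 lines lie close together, and the fibroblast sum is lower in Atxn7l3-/- in replicate 2 and higher in Atxn7l3-/- in replicates 1 and 3.

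Whether the effect in MEFs differed from that in mESCs was read from the interaction term over 19326 genes, of which 11.4% were called. Of the 6 factors in this fit 0 were called, with 0 at an unadjusted p under 0.05 and 0 called by DESeq2, which called 23.0% of genes. A negative value here means a more negative effect in MEFs. The values were -3.35 ± 1.65 for Zic2 and -2.73 ± 1.71 for Zic5 (edgeR adjusted p = 0.19 and 0.30), and -4.63 ± 2.54 for Otx2, -1.79 ± 1.01 for Pou3f1, -0.67 ± 0.34 for Sall2 and -0.31 ± 1.72 for Sox3. Otx2, Pou3f1 and Sox3 entered this fit through their mESC libraries, and their values moved with single choices. With the GC correction Pou3f1 was at -0.16 and Sox3 at 1.43, and with 1 library left out Otx2 ran from -7.56 to 0.74. With the replicate block, which called 7.15% of genes, Zic2 was at -3.85 ± 0.67 and Zic5 at -2.97 ± 0.51, and both were called (edgeR adjusted p = 0.022 and 0.021). The labels do not say that the numbers pair the libraries. In MEFs pairs were inferred from correlations in these data, and in mESCs the correlations gave no pairs. The block is therefore not well founded for the mESC libraries. There it sets Atxn7l3-/- lines without Y-linked RNA against Y-bearing WT lines, so sex and genotype cannot be told apart.

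Between the WT groups, 53.9% of the 19326 genes differed, 5180 higher and 5243 lower in MEFs. Of the 6 factors, 2 were called, Sall2 and Sox3, but Sox3 passed the filter through the mESC libraries, where it is higher, so its call supports nothing. Sall2 was higher in MEFs by 0.97 ± 0.26 (log2, SE, edgeR adjusted p = 0.0098), at 43.6 ± 6.14 CPM (SD, n = 3) against 22.3 ± 4.39 CPM (SD, n = 2). The call was lost without WT mESC replicate 1, which left 1 library in that group (log2 difference 0.78). As a description, the 49 Sox3 counts over both WT mESC libraries against 4 over the 3 WT MEF libraries give a rate 17.9 times as high in mESCs, with an exact 95% interval for counting error only of 6.56 to 68.3. Zic2 (1.44 ± 1.22), Zic5 (0.25 ± 1.23), Otx2 (-0.42 ± 1.70) and Pou3f1 (-1.26 ± 0.71) did not pass the test. For Otx2, 175 of the counts in WT MEFs came from replicate 1, against 0 and 2 in the other two, so its value rests on that library. For Zic2 and Zic5 the spread among WT MEF libraries, 11.5-fold and 24.0-fold from lowest to highest, was wider than the difference of the means.

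Other genes of the same transition were read from 4 lists. Of 20 further formative and primed genes, 19 were tested in mESCs, where 5 were called lower and 0 higher, with a median of -0.94. Of all 17800 genes tested there 690 were called lower and 548 higher, with a median of 0.04. Among them were Lin28b, an RNA-binding inhibitor of let-7 (-3.50 ± 0.62), Sox4 (-1.98 ± 0.29), Cdh2, the N-cadherin gene (-1.92 ± 0.42), and Foxd3, a forkhead factor of the epiblast and neural crest (-1.85 ± 0.34), with edgeR adjusted p from 0.022 to 0.041. Foxd3 was at 17.8 and 13.9 CPM in WT and at 3.16, 4.67 and 4.91 CPM in Atxn7l3-/- mESCs. With sex as a term Lin28b and Sox4 were still called and Cdh2 and Foxd3 were not (edgeR adjusted p = 0.093 and 0.070). Without either WT mESC library that group held 1 sample, assumed to vary like the Atxn7l3-/- lines, and 0 of all genes tested were called by edgeR, with 2932 and 2994 at an unadjusted p under 0.05. Without Atxn7l3-/- replicate 1, 3 genes were called. Over these omissions of 1 library the log2 difference ran from -2.06 to -1.92 for Sox4, from -2.07 to -1.76 for Cdh2, from -2.03 to -1.66 for Foxd3 and from -3.90 to -3.07 for Lin28b.

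Of 14 regulators of the exit from the naive state, all tested in mESCs, 2 were lower. The fit, the same for the lists that follow, called 6.96% of all genes, 690 of 17800 lower. Among the regulators called was Chd4, the NuRD remodeller (-0.83 ± 0.18, edgeR adjusted p = 0.041). With sex as a term Chd4 was not called (edgeR adjusted p = 0.087). Of 12 naive factors 2 were lower, Klf2 (-1.31 ± 0.29) and Tbx3 (-1.15 ± 0.20), with edgeR adjusted p of 0.041 and 0.027. Tbx3 was at 409 and 312 CPM in WT and at 151 to 163 CPM in Atxn7l3-/- mESCs. Of 10 paralogues tested, 3 were lower, among them Sall3 (-2.41 ± 0.36) and Sall4 (edgeR adjusted p = 0.021), and 0 higher, and Otx1, the nearest relative of Otx2, was not called (0.94 ± 0.62, edgeR adjusted p = 0.34). Sall4, a zinc-finger factor of pluripotent cells, was at 270 and 312 CPM in WT and at 107, 91.1 and 101 CPM in Atxn7l3-/- mESCs, whereas its relative Sall2, as given above, was not lower. Pou3f2 (-0.85 ± 0.50), Sox2 (-0.64 ± 0.21) and Sox1 (-1.20 ± 0.62) did not pass the test. The fibroblast markers, 2 of 7 of them called higher, moved with these differences, and their part in them was not tested.

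In MEFs, 13 of the 20 formative and primed genes were tested and 2 were called lower. Of all 15958 genes tested there 701 were called lower and 800 higher. Foxd3 had 45, 25 and 359 counts in WT and 0 in every Atxn7l3-/- library (edgeR adjusted p = 0.0498). Against a floor of 3 counts per library it was at least 42.5-fold lower, or at least 10.4-fold without WT replicate 3. Foxd3 passed the filter through the WT libraries alone, so its call supports nothing. Sox11, a SOXC factor of neural progenitors, was at 44.4, 24.0 and 73.0 CPM in WT and at 3.50, 0.588 and 6.86 CPM in Atxn7l3-/- MEFs (-3.70 ± 0.89, edgeR adjusted p = 0.049). Of the naive factors 6 were tested: Tfcp2l1 was higher in Atxn7l3-/- MEFs, at 75.2, 60.4 and 27.2 CPM against 1.24, 1.56 and 1.07 CPM (5.36 ± 0.46, edgeR adjusted p = 0.0059), and Tbx3 was lower (-2.04 ± 0.47, adjusted p = 0.044). Of the 13 exit regulators tested 0 were called. Leaving out any 1 library ended the call of Foxd3, and all but 1 such omission ended those of Sox11 and Tbx3, while Tfcp2l1 was called in each. Between the WT groups 53.9% of all 19326 genes were called, 5243 of them lower in MEFs. Of the lists, 10 of 11 naive factors tested, 9 of 13 exit regulators and 8 of 18 formative genes were lower in MEFs and 4 of the 18 higher. Of 11 paralogues Zic4, Zic1, Pou3f4 and Pou3f3 were higher and Sall3 and Sox2 lower. Genes such as Prdm14, Tcl1 and Nr0b1, with at most 1 count in any MEF library, passed the filter through the mESC libraries. Zic4, with 0 counts in both WT mESC libraries, passed it through the MEF libraries. Such calls support nothing. In the MEF genotype comparison the medians of the formative list and of all genes tested were -0.26 and -0.06.

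For each factor in the joint fit the 3 genes with the most similar profile over the 11 libraries were taken by the root mean square difference of centred log2 CPM over 19326 genes. For Zic2, whose own values spread by 2.31 on this scale, they were Tmem132c (0.53), Kcnk1 (0.64) and Tnfrsf19 (0.65), and for Zic5, with a spread of 2.19, Grk3 (0.44), Tnfrsf19 (0.45) and Tex15 (0.61). Zic2 and Zic5 differed from each other by 0.73 and stood in 4th and 9th place in each other's order. Tnfrsf19, near both, ran from 22.6 to 33.7 CPM in mESCs, from 7.56 to 181 CPM in WT MEFs and from 0.281 to 19.4 CPM in Atxn7l3-/- MEFs. Otx2 (spread 2.63) was nearest to En2 (0.84), Spag6l (0.97) and Shisa7 (1.05). Sall2 (spread 0.39) was nearest to Tmtc4 (0.16), Mgrn1 (0.18) and Fbxw5 (0.19). Pou3f1 (Gm6728, Slc38a5 and Oxct2a, 0.47 to 0.51) and Sox3 (Gm11985, AC153524.2 and Scn11a, 0.38 to 0.41) lay among genes at or near the floor in MEFs, where likeness carries little. These are descriptions over libraries that share the same group and depth differences.

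The transcripts of Sox3, Pou3f1 and Utf1 had a GC content of 66.4%, 63.9% and 63.5%, at or above the 99.2nd percentile of the genes tested in mESCs, while Otx2 (49.3%) and Zic5 (49.8%) lay near the middle. After a GC correction of each library Utf1 was at -1.07 ± 0.30 and Zic2 at -0.82 ± 0.30 in mESCs, and neither was called (edgeR adjusted p = 0.070 and 0.12). Otx2, Zic2, Zic5 and Sall2 lie on chromosome 14 (Sall2 from 52311172 to 52328762), of which Zic2 and Zic5 are the only adjacent pair.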

How the data were processed

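Poly(A)+ RNA from 5 mESC and 6 MEF libraries was sequenced by the authors. Per the submitters' processing notes the tools were bcl2fastq 2.17.1.14, cutadapt 1.10, STAR 2.5.3a, HTSeq 0.6.1p1 and DESeq2 1.16.1, with mm10. The authors deposited 1 table per cell type with raw counts per gene and normalised reads per kb, a signal divided by transcript length. Their columns of fold changes and p-values hold their own comparisons and were not used. The strand setting of the counting is not given in the sources used here. The authors left out a further WT mESC dataset after a principal component analysis, because it stood apart from its replicates, and it was not analysed here. The spread of WT mESCs given here is that of the lines they kept.

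Counts were tested with edgeR 4.0.16 (quasi-likelihood, TMM, filterByExpr, Benjamini-Hochberg over all genes tested, threshold 0.05, R 4.3.3), separately per cell type for genotype and over 11 libraries for cell type and interaction. A fold is on a log2 scale, for edgeR with the small prior count that it adds by default. A prior count of 2 was used for the log2 CPM of the profile likeness and of the replicate correlations. DESeq2 1.42.0, other filters, RLE normalization, a GC correction, a sex term, a replicate block and the omission of each library were alternatives. The omission of single WT MEF libraries from the bound for Foxd3 was chosen after seeing the data. The scripts were tested on simulated data. Intervals and floors cover counting error only. Replicate numbers come from the labels, which do not say that a number marks a litter, batch or pair. Deviations of same-numbered WT and Atxn7l3-/- MEFs correlated with r = 0.473, 0.161 and 0.240 over genes, so the numbers were taken as pairs, whereas in mESCs r was 0.0078 and -0.172. The pairing was thus inferred from the same data in which the block was then used. P-values measure the spread between lines or cultures of separate embryos.

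The genes named were all 7 factors, Atxn7l3, up to 6 called genes per list by size of change, the closest relatives and the 3 genes most alike to each factor; uncalled relatives and cell markers given with values were chosen after their values were seen. The factors and lists were chosen with earlier results of these data known. Some genes of these lists are not reported here.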

Additional observations from a re-analysis of the deposited data

Results flagged for a closer look

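The interaction test without a block called 9 of the listed genes, in a fit that called 11.4% of all genes tested. Of 18 formative and primed genes tested, 4 were called with a positive and 1 with a negative value. Of 13 exit regulators 2 were called, both positive. Of 11 naive factors 1 was positive and 1 negative, and of 11 paralogues 0 were called. Each value is the log2 effect in MEFs minus that in mESCs. Zic2 (-3.85) and Zic5 (-2.97) were called with the replicate block (edgeR adjusted p = 0.022 and 0.021), which called 7.15% of genes, and not without it. The block also pairs the mESC lines, whose numbers do not pair them. Its genotype effect in mESCs rests on lines whose sex and genotype cannot be told apart.

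Among the listed genes, Lin28b was at 7.30 (edgeR adjusted p = 0.015), with up to 15.1 CPM in WT against 0.338 to 1.67 CPM in Atxn7l3-/- mESCs, and at most 0.734 CPM in WT against 3.04 to 8.23 CPM in Atxn7l3-/- MEFs. Lin28a was at 9.91 (edgeR adjusted p = 0.031), a size set by the prior count, because all 3 WT MEF libraries had 0 counts. Foxd3 was at -8.30 (edgeR adjusted p = 0.037), which likewise rests on 0 counts in all 3 Atxn7l3-/- MEF libraries. Tfcp2l1 was at 5.33 (edgeR adjusted p = 0.00060), from its level in Atxn7l3-/- MEFs. Sox4 was at 2.56 (edgeR adjusted p = 0.0020), with 297, 298 and 275 CPM in Atxn7l3-/- against 204, 150 and 247 CPM in WT MEFs. Dnmt3b (1.93), Zfp281 (1.71) and Chd4 (1.13) were positive (edgeR adjusted p = 0.012, 0.033 and 0.023). Esrrb was at -4.69 (edgeR adjusted p = 0.041), with at most 0.653 CPM in any MEF library. It had 1, 0 and 0 counts in Atxn7l3-/- MEFs, so that the prior count sets its size too. The calls of Esrrb, Lin28a and Foxd3 each rest on a MEF group at the floor, so they support nothing and are descriptions only. With each of the 11 libraries left out in turn, Sox4 and Tfcp2l1 were called all 11 times, Dnmt3b and Lin28b 9 times, Chd4 7 times, Lin28a and Zfp281 5 times, Foxd3 4 times and Esrrb 1 time.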

How the results depend on the processing

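Of 68 recomputed counts and orders 57 stayed within 1.5 times their value. Of the factors tested in MEFs, 0 were called by edgeR without a block, 2 with the replicate block, 2 with the GC correction and replicate block (1668 of all 15944 genes tested), 2 by DESeq2 and 1 in a fit of all 11 libraries. The block alone called 14.0% of genes, DESeq2 20.9% and the fit of 11 libraries 18.5%, against 9.41% without a block. For the interaction, 0 became 2 with the replicate block (7.15% of genes against 11.4%), 2 with GC correction and block (1144 of 19297 genes), and 0 to 1 when 1 library was left out (1 without Atxn7l3-/- MEF replicate 1, Zic2 at -5.68). Between WT groups, 2 called factors became 1 with at least 10 counts in every library and 0 to 3 when 1 library was left out. Leaving out 1 library gave 0 to 0 called factors within mESCs and within MEFs. For part of the mESC omissions this cannot show stability. Without either WT library that group held 1 sample, and without Atxn7l3-/- replicate 1 only 3 of 17530 genes were called. On the CPM scale 3 of 7 ranks in WT mESCs were kept. Of 345 values of the factors 310 kept direction and side, 13 passed the threshold only in the alternative, 3 no longer passed and 19 reversed. In mESCs, Otx2 was -0.047 with sex as a term, Sox3 was -3.28 with it and -0.055 with the GC correction, and with 1 library left out Pou3f1 ran from -0.80 to 0.61 and Sox3 from -0.87 to 0.69. For the interaction, Otx2 ran from -7.56 to 0.74 and Sox3 from -1.14 to 0.68 with 1 library left out, and Sox3 was 1.43 with the GC correction and 0.77 with GC correction and block. Between WT groups, Zic5 was -0.73 with the replicate block and -0.70 with GC correction and block, and Otx2 ran from -5.77 to 0.78 and Zic5 from -1.38 to 0.80 with 1 library left out. The causes were not tested. The replicate block changed no call of a factor within mESCs, where the numbers do not pair the lines (1435 genes called against 1238), nor that of Sall2 in MEFs. In that mESC fit the genotype effect rests on the Atxn7l3-/- lines without Y-linked RNA against Y-bearing WT lines. Of 788 values of the other named genes 650 were unchanged in call and 138 lost it, none reversed.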
